A study of Mus musculus with 2 samples.

Results

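Enteroendocrine cells were followed through 10 of the genes that mark what they make and store, out of 55357 gene rows in the deposited tables. The genes were taken by symbol and all 10 had a row. They fall into the granins Chga and Chgb, the peptide hormones Gip, Cck, Sct, Gcg, Nts, Ghrl and Sst, and Tph1, the enzyme that starts serotonin synthesis. Each was measured as unique molecular identifiers (UMIs, 1 for each captured transcript molecule) within single cell barcodes.

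Crypt-enriched epithelium of the small intestine was compared between Adipfl/fl mice, which carry floxed adiponectin alleles without Cre, and Adipfl/flpVilli-CreT mice, which carry the same floxed alleles together with Cre under the villin promoter, active throughout the intestinal epithelium. The tissue was pooled from 8-week-old male mice, and how many animals went into each library was not clear from the sources used here. Dead cells were depleted with magnetic beads before capture with the 10x Genomics 3′ kit (V3). There was 1 library for each genotype, so no test between genotypes was possible, cells are not replicates, and every interval below is a 95% interval for counting error only.

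Enteroendocrine cells are scattered single cells of the gut lining that sense nutrients and release hormones toward blood vessels and nerves. Serotonin-making enterochromaffin cells and several kinds of peptide-hormone cells arise from a shared precursor that passes through expression of Neurog3, and 1 cell often makes more than 1 hormone. Granins are acidic proteins of the dense-core granules in which peptide hormones and amines are stored, and secretin is known to be made by many enteroendocrine cells whatever their other product.

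The genes themselves are spread over the genome, with all positions on GRCm38 from GENCODE M21 and every member annotated as protein coding. Chga (ENSMUSG00000021194) lies at chr12:102554969-102565028 on the plus strand and Chgb (ENSMUSG00000027350) at chr2:132781278-132795079 on the plus strand. Gip (ENSMUSG00000014351) lies at chr11:96024545-96030831 on the plus strand, Cck (ENSMUSG00000032532) at chr9:121489824-121495694 on the minus strand, Sct (ENSMUSG00000038580) at chr7:141278330-141279133 on the minus strand and Gcg (ENSMUSG00000000394) at chr2:62474530-62483650 on the minus strand. Nts (ENSMUSG00000019890) lies at chr10:102481756-102490486, Ghrl (ENSMUSG00000064177) at chr6:113716119-113719880, Sst (ENSMUSG00000004366) at chr16:23889573-23890958 and Tph1 (ENSMUSG00000040046) at chr7:46644641-46672537, each on the minus strand.

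Sequence just upstream of the RefSeq start (GRCm38.p6) is printed for 5 members, because the granins and Sst share a short motif there and Sct and Gcg have a TATA sequence. For Sst and Chgb the RefSeq start lies inside the gene span given above, so their printed bases are within that span. All 10 members matched the RefSeq table, with 14 starts, and each start was searched from 250 bases before it to 50 bases after it on both strands. Capitals mark the full cyclic AMP response element TGACGTCA in Sst and Chgb, its first part TGACGT in Chga, and TATAAA or its reverse complement in Sct and Gcg. Sst is read from chr16:23890874-23890903 (minus strand), Chgb from chr2:132781559-132781588 (plus strand), Chga from chr12:102554841-102554940 (plus strand), Sct from chr7:141279134-141279233 (minus strand) and Gcg from chr2:62483654-62483753 (minus strand).
Sst: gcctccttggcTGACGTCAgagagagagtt
Chgb: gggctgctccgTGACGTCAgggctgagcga
Chga: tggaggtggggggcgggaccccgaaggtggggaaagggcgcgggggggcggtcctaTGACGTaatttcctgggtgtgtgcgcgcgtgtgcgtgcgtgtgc
Sct: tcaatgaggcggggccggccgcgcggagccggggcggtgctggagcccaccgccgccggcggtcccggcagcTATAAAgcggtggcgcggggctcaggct
Gcg: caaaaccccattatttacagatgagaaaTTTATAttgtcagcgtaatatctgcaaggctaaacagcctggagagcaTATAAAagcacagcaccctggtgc

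TGACGTCA was in the windows of Chgb and Sst and in 588 of 32851 windows of all genes (1.79%). TGACGT, which is part of TGACGTCA, was in Chga, Chgb and Sst and in 2468 windows (7.51%). TATAAA was in Chga, Sct and Gcg and in 4473 windows (13.6%). These are letter matches, and whether a factor binds there was not measured.

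The Adipfl/fl table held 9791 barcodes and 42150623 UMIs, and that of Adipfl/flpVilli-CreT 11838 barcodes and 63370798 UMIs. Requiring over 500 detected genes, and mitochondrial genes at under 25% of UMIs, kept 3069 barcodes (31.3%) and 5555 barcodes (46.9%), with 25687687 and 48895126 UMIs. Both numbers are below those the study kept, and its mitochondrial gene set is not given in the sources used here. Kept barcodes had a median of 4838 UMIs in Adipfl/fl and 4749 in Adipfl/flpVilli-CreT. The libraries shared 31 barcode sequences, 3 of them among kept barcodes. Adipoq, the targeted gene, had 1 UMI over all barcodes in Adipfl/fl and 0 in Adipfl/flpVilli-CreT, too few to check the genotype labels.

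A barcode was called hormone-rich when the 10 genes made up at least 1% of its UMIs, with at least 10 UMIs. There were 56 such barcodes among those kept in Adipfl/fl, 1.82% (1.38% to 2.36%, Clopper-Pearson), and 61 in Adipfl/flpVilli-CreT, 1.10% (0.841% to 1.41%). Dividing the second share by the first gave 0.602 (0.412 to 0.881). Few barcodes were near the limit: the lowest inside it had 1.68% and 1.00% of UMIs from the members, and the highest outside had 0.707% and 0.791%. The median member share of a hormone-rich barcode was 9.71% in Adipfl/fl and 7.59% in Adipfl/flpVilli-CreT, and the highest reached 46.1% and 36.9%.

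Clustering that left out the 10 genes gave nearly the same barcodes. Clusters 18 and 19 carried 16 and 14 of 16 further enteroendocrine markers. Together they held 54 barcodes of Adipfl/fl and 56 of Adipfl/flpVilli-CreT, and all of these were hormone-rich. Such enteroendocrine-like barcodes were 1.76% (1.32% to 2.29%) of kept barcodes in Adipfl/fl and 1.01% (0.762% to 1.31%) in Adipfl/flpVilli-CreT, a ratio of 0.573 (0.387 to 0.849). The 2 remaining hormone-rich barcodes of Adipfl/fl were in villus enterocyte-like clusters. The 5 of Adipfl/flpVilli-CreT were in enterocyte-like or unnamed clusters and, in 1 case, among goblet-like barcodes.

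Markers of other cell types were read in the same barcodes. In hormone-rich barcodes all 16 further enteroendocrine markers were detected in both libraries, at a summed 7328 UMIs per 1000000 UMIs (CPM) in Adipfl/fl and 5640 CPM in Adipfl/flpVilli-CreT, against 11.9 CPM in the other kept barcodes of each. Fibroblast or muscle markers were at 0 UMIs in both, 0 of 7 being detected. The 9 T cell markers, of which 8 and 4 were detected, summed to 137 and 21.0 CPM, against 5043 and 2812 CPM elsewhere, with Cd8a at 0 in both. Goblet markers, all 7 detected, summed to 2762 and 12619 CPM, and 1 barcode of Adipfl/flpVilli-CreT had 277862 CPM of them. The 10 lower villus enterocyte markers, all detected, summed to 8243 and 19753 CPM within hormone-rich barcodes, against 21065 and 24245 CPM in the other kept barcodes. The part of these markers in the levels below was not tested.

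**Figure D1:**
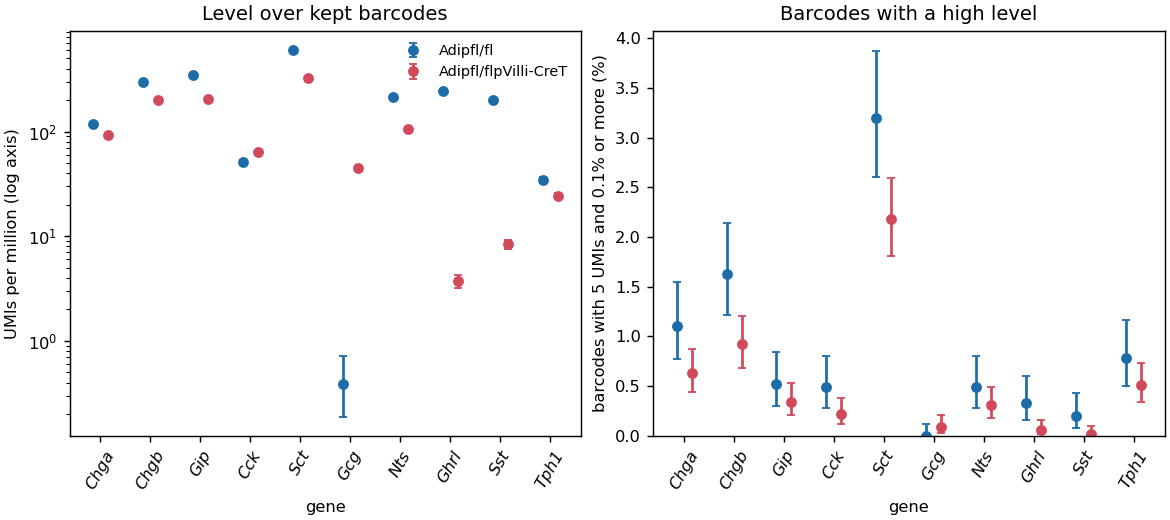
Levels of the 10 genes in both libraries, with CPM over kept barcodes on a log axis (left; bars are exact Poisson intervals) and the percentage of kept barcodes with at least 5 UMIs and at least 0.1% of UMIs of the gene (right; bars are Clopper-Pearson intervals). Blue is Adipfl/fl and red Adipfl/flpVilli-CreT; Sct was highest in both libraries, and Gcg, Ghrl and Sst were the members furthest apart.

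Of the granins, Chgb was the more abundant and the more widely shared among hormone-rich barcodes. Chgb, chromogranin B, had 7668 UMIs over kept barcodes in Adipfl/fl (299 CPM) and 9761 in Adipfl/flpVilli-CreT (199.6 CPM), a fold of 0.669 (0.649 to 0.689, Adipfl/flpVilli-CreT over Adipfl/fl, as are all folds between libraries). It was at 5 UMIs and 0.1% of UMIs or more, called high here, in 50 and 51 kept barcodes. Of these, 49 in each library were hormone-rich. Their Chgb UMIs ran from 5 through a median of 91 to 753 in Adipfl/fl, and from 6 through 178 to 576 in Adipfl/flpVilli-CreT, so the libraries overlapped along almost the whole range.

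Chga, chromogranin A, had 3036 and 4497 UMIs (118 and 92.0 CPM), a fold of 0.778 (0.743 to 0.815). It was high in 34 and 35 barcodes, from 6 through 57.5 to 270 UMIs in Adipfl/fl and from 5 through 71 to 338 in Adipfl/flpVilli-CreT. Chga was thus found in fewer hormone-rich barcodes than Chgb. Of 117 hormone-rich barcodes in both libraries, 98 were high for Chgb, 67 for Chga, 64 for both and 16 for neither.

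Where the granins were found differed outside hormone-rich barcodes. Hormone-rich barcodes held 98.9% and 96.5% of all Chgb UMIs of kept barcodes, but 84.1% and 69.2% of Chga. The ratio of Chga to Chgb UMIs was 0.337 and 0.330 within hormone-rich barcodes, and 11.1 (6.28 to 21.3) and 23.6 (14.7 to 40.1) in lower villus enterocyte-like barcodes that were not hormone-rich. In T cell-like barcodes the ratio was 0.680 (0.345 to 1.31) and 0.379 (0.279 to 0.508), nearer to that of hormone-rich barcodes. There 1 barcode of each library held most of the Chgb UMIs (19 of 25 and 165 of 169), so this ratio is not read as that of a background. The part of free RNA in the low levels of Chga was not tested.

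The level of Chga in those barcodes was 26.4 and 37.7 CPM in the lower villus, 29.6 and 43.5 CPM in the mid-villus and 13.1 and 20.0 CPM at the villus tip. After thinning each barcode to 2000 UMIs, 5.80% and 6.39% of lower villus enterocyte-like barcodes had a Chga UMI, against 0.567% and 0.730% of T cell-like barcodes and 1.40% and 1.29% of goblet-like barcodes. Median depths before thinning were 21458.5 and 20254 UMIs in the lower villus class and 4626 and 4102 in T cell-like barcodes. Among enteroendocrine-like barcodes the thinned share was 86.3% and 84.9%. Lower villus enterocyte-like barcodes were thus above the T cell-like background for Chga, while Chgb was at 0.603% or less in enterocyte-like and goblet-like classes, at or below the level in T cell-like barcodes of Adipfl/fl (1.42%, with 0.487% in Adipfl/flpVilli-CreT).

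Sct, the precursor of secretin, which drives bicarbonate release from the pancreas, was the most abundant member in both libraries on the CPM scale. This scale counts transcript 3′ ends, which do not grow with transcript length. It had 15323 and 15767 UMIs (597 and 322 CPM), a fold of 0.541 (0.529 to 0.553). Sct was high in 113 of the 117 hormone-rich barcodes, more than any other member. High barcodes ran from 5 through 22 to 1801 UMIs in Adipfl/fl and from 5 through 16 to 2023 in Adipfl/flpVilli-CreT, so the medians were far below the highest values.

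Outside hormone-rich barcodes, Sct was high in 43 and 63 barcodes. In Adipfl/fl 30 of these were goblet-like and 10 tuft-like, and in Adipfl/flpVilli-CreT 33 were goblet-like, 22 in a cycling-like cluster and 6 tuft-like. The goblet-like cluster carried 7 of 7 goblet markers and also 7 of 9 Paneth cell markers. Its Sct levels are therefore not read as those of goblet cells alone. Goblet-like barcodes that were not hormone-rich had 424 and 379 CPM of Sct and tuft-like barcodes 396 and 343 CPM, against 17.4 and 34.2 CPM in T cell-like barcodes. After thinning to 2000 UMIs, 52.6% and 52.4% of goblet-like barcodes and 54.3% and 45.9% of tuft-like barcodes had a Sct UMI. The T cell-like shares were 1.70% and 5.84%. Without thinning the shares were 77.3% and 81.2% (goblet-like, median depth 5582 and 6295 UMIs), 81.6% and 87.1% (tuft-like, 5340 and 8715 UMIs) and 4.53% and 9.59% (T cell-like). Between the genotypes the goblet-like and tuft-like levels were within 1.5-fold.

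**Figure D2:**
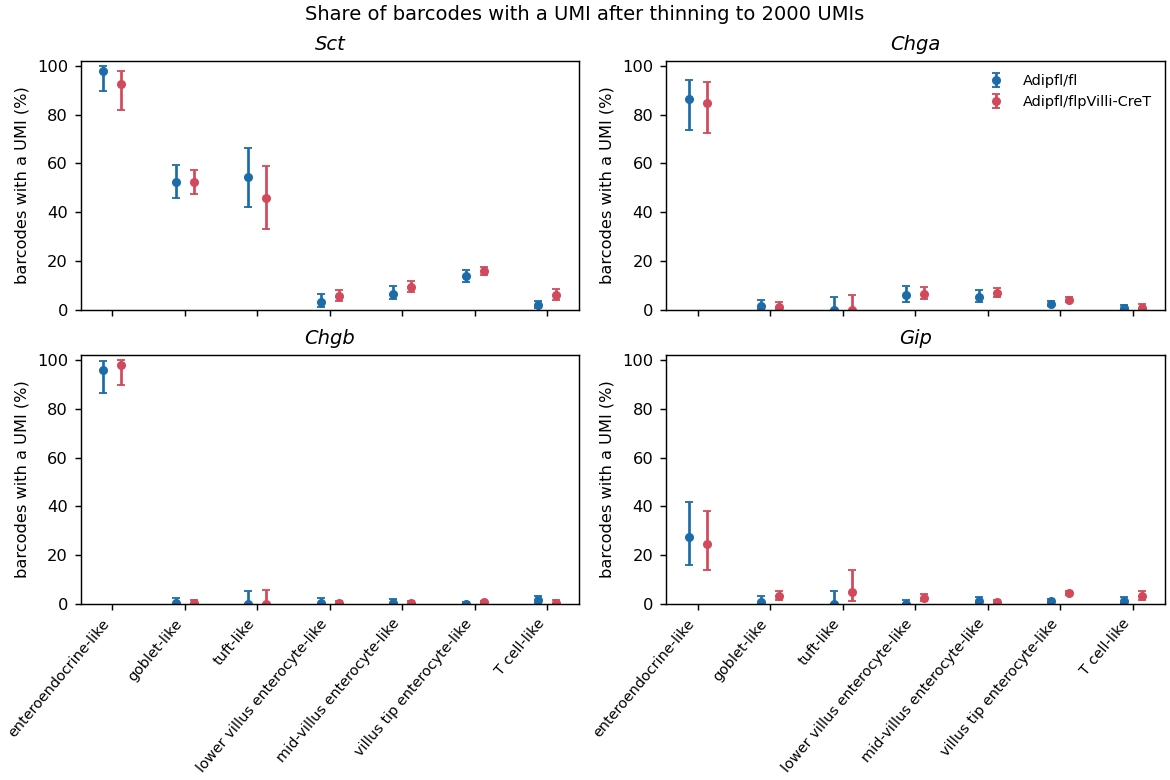
Percentage of barcodes with a UMI of Sct, Chga, Chgb and Gip after every barcode was thinned to 2000 UMIs, for 7 classes of barcodes in Adipfl/fl (blue) and Adipfl/flpVilli-CreT (red), with Clopper-Pearson intervals. Sct was in 52.6% and 52.4% of goblet-like barcodes, while Chgb stayed near the T cell-like level outside enteroendocrine-like barcodes.

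Among enterocyte-like barcodes the Sct share after thinning was 3.12% and 5.48% in the lower villus, 6.52% and 9.30% in the mid-villus and 13.6% and 15.7% at the villus tip. The tip stood above the other villus classes and above T cell-like barcodes beyond counting error in both libraries, at 11.4% to 16.1% and 14.1% to 17.4%. The intervals of the lower and mid-villus overlapped in each library, and that of the lower villus also overlapped the T cell-like one, so the lower villus share is read as background. A cycling-like cluster of 4 barcodes in Adipfl/fl and 65 in Adipfl/flpVilli-CreT had 303 and 805 CPM of Sct, in Adipfl/flpVilli-CreT above the goblet-like and tuft-like levels.

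Gip, the glucose-dependent insulinotropic peptide of K cells, had 8841 and 9973 UMIs (344 and 204 CPM), a fold of 0.593 (0.576 to 0.610). It was high in 16 and 19 barcodes. Their Gip UMIs ran from 9 through 359.5 to 2520 in Adipfl/fl and from 7 through 159 to 1848 in Adipfl/flpVilli-CreT, with much overlap. The ratio of the shares of high barcodes, 0.656 (0.320 to 1.36), was not told from 1 at this number of barcodes.

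Cck, cholecystokinin, which contracts the gallbladder and slows feeding, had 1312 and 3090 UMIs (51.1 and 63.2 CPM). It was the only peptide hormone other than Gcg with a fold above 1, at 1.24 (1.16 to 1.32). The fold rested on few barcodes, with 1023 of the 3090 UMIs in 1 barcode of Adipfl/flpVilli-CreT, without the top barcode of each library it was 1.09, and with every barcode given the same weight 0.940. High barcodes for Cck were 15 and 12, a ratio of shares of 0.442 (0.189 to 1.01).

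Nts, neurotensin, a peptide released after fat, had 5434 and 5151 UMIs (212 and 105 CPM), a fold of 0.498 (0.479 to 0.517). It was high in 15 and 17 barcodes, from 10 through 268 to 1328 UMIs and from 5 through 267 to 949. The medians of the libraries were thus close while the library-wide level differed. The share of high barcodes among those kept gave a ratio of 0.626 (0.294 to 1.35), which counting error alone spans. Over all deposited barcodes 35 and 20 were high for Nts, a ratio of 0.473 (0.259 to 0.842), so the filter matters for this share.

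Gcg, the proglucagon gene, from which L cells make glucagon-like peptides, had 10 UMIs in Adipfl/fl and 2186 in Adipfl/flpVilli-CreT (0.389 and 44.7 CPM), a fold of 115 (62.3 to 239.8). No barcode of Adipfl/fl was high for Gcg, which allows a share of up to 0.0978% of the 3069 kept barcodes (3 barcodes; the Clopper-Pearson upper limit is 0.120%). In Adipfl/flpVilli-CreT 5 barcodes were, with a lowest of 26, a median of 34 and a highest of 1524 UMIs. The highest alone held 69.7% of the UMIs of the library, so the Gcg level there is that of a few barcodes. The fold was 49.7 without the top barcode of each library, 71.2 as the mean of shares per barcode and 221.5 at a mitochondrial limit of 10%. The 0 of 3069 and 5 of 5555 barcodes were not told apart, as the lower limit of the ratio of shares was 0.506.

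Ghrl, ghrelin, a hunger hormone best known from the stomach, had 6197 UMIs in Adipfl/fl and 182 in Adipfl/flpVilli-CreT (241 and 3.72 CPM), a fold of 0.0154 (0.0132 to 0.0179). High barcodes were 10 in Adipfl/fl and 3 in Adipfl/flpVilli-CreT, a ratio of shares of 0.166 (0.0293 to 0.644). One barcode of Adipfl/fl held 4799 of the 6197 UMIs, 22.8% of everything in that barcode. The fold was 0.0488 without the top barcode of each library, 0.0419 as the mean of shares per barcode and 0.0858 without the 8% of barcodes with the highest Scrublet (doublet) scores.

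Sst, somatostatin, the inhibitory peptide of D cells, had 5155 and 408 UMIs (201 and 8.34 CPM), a fold of 0.0416 (0.0375 to 0.0460). In Adipfl/fl 6 barcodes were high for it, from 54 through 288 to 2590 UMIs. In Adipfl/flpVilli-CreT 1 was, with 385 UMIs, 94.4% of all Sst UMIs of the library. The ratio of the shares of high barcodes was 0.0921 (0.00200 to 0.759), and the fold was 0.00471 without the top barcode of each library, 0.102 as the mean of shares per barcode and 0.0676 without the highest Scrublet scores.

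Tph1, tryptophan hydroxylase 1, had 886 and 1190 UMIs (34.5 and 24.3 CPM), a fold of 0.706 (0.646 to 0.771). It was high in 24 and 28 barcodes, from 8 through 26 to 142 UMIs in Adipfl/fl and from 6 through 31 to 91 in Adipfl/flpVilli-CreT. No single barcode dominated it, in contrast with Ghrl, Sst and Gcg. The ratio of shares was 0.645 (0.360 to 1.16).

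The hormone-rich barcodes split along Tph1. Cluster 19, led by Cartpt, Ambp, Reg4, Lmx1a and Trpa1, held 24 and 27 barcodes with 5034 and 4935 CPM of Tph1, 13494 and 12917 CPM of Chga and 36424 and 31846 CPM of Chgb. Gip was at 5.91 and 9.10 CPM there, and Gcg, Ghrl and Sst were at 0 UMIs in both libraries. Cluster 18, led by Pyy, Rbp4, Scg2, Isl1 and Ffar1, held 30 and 29 barcodes with the peptide hormones. Gip was at 37977 and 36132 CPM in it and Nts at 22890 and 14637 CPM, with Tph1 at 17.4 and 168 CPM.

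The granins followed the same split, Chga more than Chgb. In cluster 18 Chga was at 692 and 977 CPM and Chgb at 5080 and 9081 CPM, below their levels in cluster 19 in both libraries. Sct was in both clusters, at 10452 and 9060 CPM in cluster 19 and 49929 and 38175 CPM in cluster 18. Levels within a cluster are descriptions of barcodes that were grouped by other genes, since the 10 members were left out of the clustering.

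Co-detection within barcodes gave the split barcode by barcode. Tph1 was high in 50 of the 117 hormone-rich barcodes, and all 50 were high for Chgb, 49 for Chga and 48 for Sct. None of the 50 was high for Gip, Cck, Nts, Ghrl, Sst or Gcg. Of the 31 barcodes high for Gip, 28 were high for Chgb and 1 for Chga. Of the 26 high for Nts, 11 were high for Chgb and 10 for Chga, and all 26 were high for Sct.

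Peptide hormones were detected together in recurring sets. Gip and Cck were both high in 14 barcodes, Cck was high in all 5 barcodes high for Gcg and in 11 of the 26 high for Nts, and Gip in 2 of those 26. Ghrl was high in all 6 hormone-rich barcodes high for Sst. The commonest sets were Sct with Tph1 (23 barcodes in Adipfl/fl and 25 in Adipfl/flpVilli-CreT), Sct with Nts (6 and 7), Gip with Sct (4 and 9) and Gip with Cck and Sct (7 and 3). Sct with Cck, Nts and Ghrl was seen in 4 barcodes of Adipfl/fl and in 0 of Adipfl/flpVilli-CreT.

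Most hormone-rich barcodes therefore carried more than 1 hormone product. With Tph1 counted as the product serotonin, 54 of 56 barcodes in Adipfl/fl (96.4%, 87.7% to 99.6%) and 55 of 61 in Adipfl/flpVilli-CreT (90.2%, 79.8% to 96.3%) were high for 2 or more. Over both libraries 77 had 2, 18 had 3 and 14 had 4. Sct was high in 113 of the 117 barcodes and was part of every set of 2, so these shares rest largely on Sct. Hormone-rich barcodes were also chosen by these genes, so a high share among them is partly built in. The same rule gave 53 of 54 and 50 of 56 enteroendocrine-like barcodes, which were grouped without the members. It gave 1 of 375 and 0 of 459 T cell-like, 0 of 225 and 1 of 409 goblet-like and 0 of 4 and 3 of 65 cycling-like barcodes. After thinning to 2000 UMIs the shares among hormone-rich barcodes were 88.7% and 71.9%. With 10 UMIs and 0.5% required they were 55.4% and 57.4%, so the number of hormones per barcode depends on how low a level is counted.

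**Figure D3:**
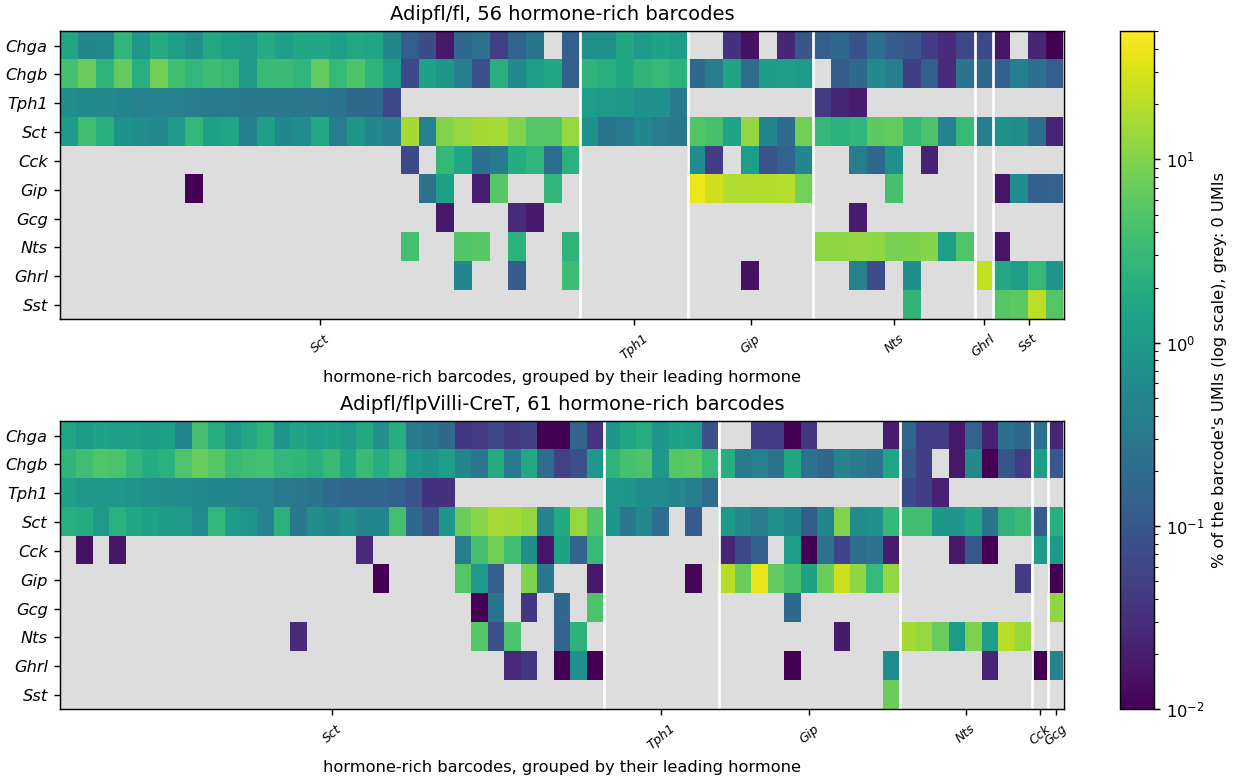
Percentage of each barcode's UMIs from each of the 10 genes (rows) in the 56 hormone-rich barcodes of Adipfl/fl and the 61 of Adipfl/flpVilli-CreT (columns, grouped by leading hormone), on a log color scale with grey for 0. Columns high for Tph1 carried Chga and Chgb and, of the peptide hormones, were high only for Sct, and columns led by Sst or Ghrl were seen only in Adipfl/fl, 5 in all.

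Each hormone-rich barcode was also placed under the hormone with the most UMIs in it. Sct led in 29 barcodes of Adipfl/fl and 33 of Adipfl/flpVilli-CreT, Gip in 7 and 11, Nts in 9 and 8 and Tph1 in 6 and 7. Sst led in 4 and 0, Ghrl in 1 and 0, Cck in 0 and 1 and Gcg in 0 and 1. Of the 62 Sct-led barcodes 37 were high for Tph1, so levels in that group are averages over a mixed set of barcodes. Where Gip led, its level was 191876 CPM in Adipfl/fl and 77024.5 CPM in Adipfl/flpVilli-CreT (108266 CPM over both libraries). Sct was at 66924 and 10392 CPM there, Chgb at 6493 and 6868 CPM and Chga at 256 and 172 CPM. Gip-led barcodes of Adipfl/flpVilli-CreT included 1 of 36926 UMIs, which was mid-villus enterocyte-like, and 1 of 24917 UMIs. Where Tph1 led, Chgb was at 32074 CPM and Chga at 11670 CPM over both libraries. Where Nts led, Nts was at 98245 CPM in Adipfl/fl and 39659 CPM in Adipfl/flpVilli-CreT (58561 CPM together). Chgb was at 2283 and 747 CPM there and Chga at 1070 and 510 CPM. A mid-villus enterocyte-like barcode with 58635 UMIs was among those of Adipfl/flpVilli-CreT and weighs heavily in these sums. Its part was not tested. The 4 Sst-led barcodes had 87995 CPM of Sst and 14396 CPM of Ghrl.

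Transcription factors of the lineage differed between these groups. Levels by leading hormone, here and for the secreted products below, sum both libraries, and barcodes with many UMIs weigh more. The part of the large Gip-led and Nts-led barcodes in them was not tested. Lmx1a, a factor of enterochromaffin cells, was at 489 CPM in Tph1-led and 216 CPM in Sct-led barcodes and at 0 UMIs in Gip-led and Nts-led ones. Isl1, a factor of peptide-hormone cells, was at 786 CPM in Gip-led, 259 CPM in Sct-led and 184 CPM in Nts-led barcodes and at 0 in Tph1-led ones. Rfx6 was highest in Gip-led barcodes (396 CPM, against 88.2, 85.1 and 30.7 CPM in Sct-led, Tph1-led and Nts-led). Neurod1, a pan-endocrine factor, was found in all 4 groups, from 403 CPM in Gip-led to 2936 CPM in Tph1-led barcodes.

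Other secreted products were divided in the same way. Pyy, peptide YY of L cells, was at 9306 CPM in Sct-led, 4135 CPM in Nts-led and 271 CPM in Gip-led barcodes and at 0 UMIs in Tph1-led ones. In cluster 19 Pyy was at 0 UMIs in both libraries, so the Sct-led barcodes of that cluster had none of it. Tac1, the precursor of substance P, was at 1096 CPM in Tph1-led and 714 CPM in Sct-led barcodes, 13.9 CPM in Gip-led and 0 in Nts-led ones. Scg2, secretogranin II, another granin, was at 821, 675 and 648 CPM in Gip-led, Nts-led and Sct-led barcodes and 0 in Tph1-led ones. Slc18a1, the vesicular transporter that loads serotonin into granules, was at 798 CPM in Tph1-led and 418 CPM in Sct-led barcodes.

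**Figure D4:**
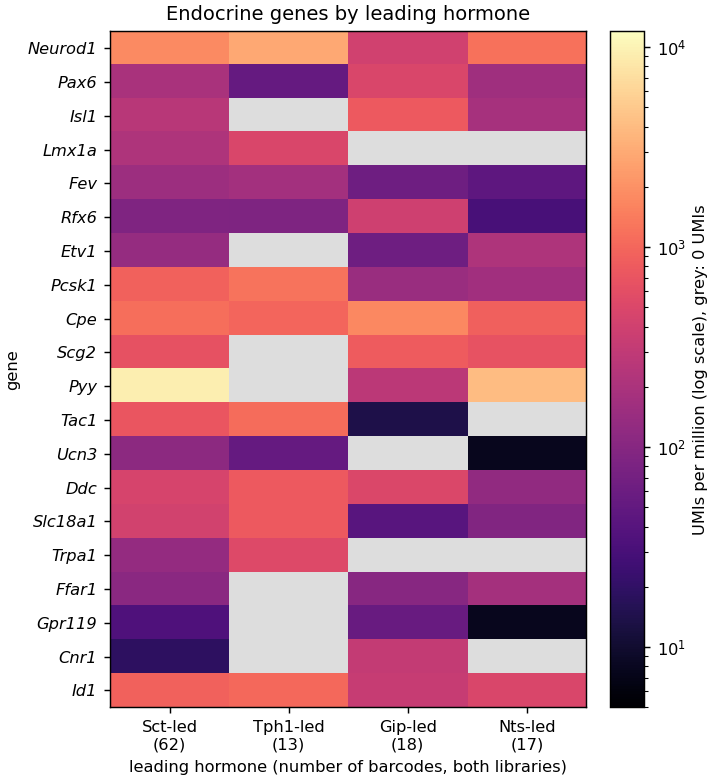
CPM of 20 endocrine genes (rows) in barcodes led by Sct (62 barcodes), Tph1 (13), Gip (18) and Nts (17), both libraries together. Lmx1a and Tac1 were highest in Tph1-led barcodes, Isl1 and Scg2 were at 0 in them, and Neurod1 was found in all groups. The Sct-led group is mixed, with 37 of its 62 barcodes high for Tph1, and in every group barcodes with many UMIs weigh more.

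Genes that set 1 group apart from the other hormone-rich barcodes were found by fold, over both libraries. In Gip-led barcodes these were Nnat (35.3-fold, 21.0 to 63.2), Cnr1, a cannabinoid receptor (26.2-fold, 13.4 to 56.0), Il17re, Fabp5, a fatty acid binding protein (8.05-fold), and Cd44. In Nts-led barcodes Adgrd1 was 30.6-fold higher (18.4 to 53.4), followed by Slc51b, a bile acid export subunit (4.76-fold). Slc51b was at 95.1 CPM in those of Adipfl/fl and 385 CPM in those of Adipfl/flpVilli-CreT, against 61.3 CPM in the other hormone-rich barcodes. Epithelial barcodes as a whole had 163 and 195 CPM of it. An Nts-led barcode of Adipfl/flpVilli-CreT with 58635 UMIs was mid-villus enterocyte-like, and its part was not tested. The 3 next genes rested on 1 library, mt-Nd6 on Adipfl/fl (1117 and 56.6 CPM), and Spink1 (143 and 7350 CPM) and Reg3b (594 and 27383 CPM) on Adipfl/flpVilli-CreT. In Tph1-led barcodes Afp was 14.2-fold higher (12.9 to 15.6), and Trpa1, a channel that senses irritants, 6.56-fold (4.50 to 9.49), with B3galt5 and Bmp2 between them. Atf6, at 8.30-fold, rested on Adipfl/flpVilli-CreT (447 CPM, against 22.3 CPM in Adipfl/fl). In Sct-led barcodes Ucn3, urocortin 3, was 8.72-fold higher (3.80 to 24.6), while D630039A03Rik, Inpp4b, Man1c1 and Spats2l had at most 2 UMIs elsewhere. The groups were chosen by the members, and these folds describe the barcodes without a test.

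Across all kept barcodes the genes whose level varied most like each member were taken by the mean of Pearson's r in the 2 libraries (log-normalised counts, 3069 and 5555 barcodes that share their library and differ in depth). For Tph1 these were Lmx1a (0.876), Snap25 (0.853) and Scn3a (0.842). For Chgb they were Neurod1 (0.884), Cacna2d1 (0.829) and Scn3a (0.806), and for Chga Neurod1 (0.720). For Cck they were Scg2 (0.710) and the fatty acid receptor Ffar1 (0.676), and for Gip Sphkap (0.625), Rbp4 (0.622) and Rfx6 (0.613). The values for Gcg, Nts, Ghrl and Sst were 0.500 or lower, with few barcodes behind each, and are not read as a likeness. Between members, r was 0.77 and 0.64 for Chga with Chgb and 0.79 and 0.77 for Chgb with Tph1.

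The rest of the endocrine program was read from hand-written lists. Of 16380 genes with at least 20 UMIs, 14.4% were at least 2-fold higher in hormone-rich than in other kept barcodes in both libraries. This was so for 16 of 19 transcription factors listed, 19 of 20 prohormone processing and granule genes, 12 of 18 nutrient and hormone sensors and 8 of 19 other hormones and amine genes, 4 of which had no UMI in hormone-rich barcodes. Of 21 hormone receptors 13 had no UMI there and 4 were higher, and of 6 BMP response genes 5 were. Several listed genes reached 20 UMIs only through the hormone-rich barcodes, so these counts support nothing about the lists. The genes furthest above the other kept barcodes were Ambp, a plasma protein precursor (at 266 and 245 CPM within hormone-rich barcodes), Snap25, a granule fusion protein (410.0 and 297 CPM), Serpina1c (488 and 378 CPM) and Lmx1a (169.7 and 159.8 CPM), each with 9 or fewer UMIs elsewhere. Since hormone-rich barcodes were chosen by endocrine genes, these counts describe what else they carried.

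Neurog3, the factor of the precursor, had 0 UMIs in hormone-rich barcodes of Adipfl/fl and 22 (35.5 CPM) in those of Adipfl/flpVilli-CreT, all from 2 barcodes. In the other kept barcodes it was at 1.62 and 2.67 CPM, all from 1 and 7 barcodes of an unnamed cluster. The granule genes were abundant: Cpe, which trims prohormones after cleavage, was at 1296 and 1086 CPM within hormone-rich barcodes and the convertase Pcsk1 at 693 and 686 CPM. Ddc, which completes serotonin synthesis after Tph1, was at 434 and 436 CPM. The sensors included Ffar2, a receptor for short-chain fatty acids, at 179 and 137 CPM and Trpm2, a cation channel, at 280.4 and 193.7 CPM. Slc5a1, the sodium glucose transporter, was lower in hormone-rich (382 and 1117 CPM) than in other kept barcodes (1582 and 2075 CPM).

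Between the genotypes, 5 of the 10 members (Gip, Sct, Nts, Ghrl and Sst) were lower by at least 1.5-fold in Adipfl/flpVilli-CreT over all kept barcodes, against 14.6% of the 16380 genes. Without the top barcode of each library the fold of Gip was 0.675, which is short of this limit. Gcg was higher by at least 1.5-fold, against 3.52% of genes. The members together had 2097 CPM in Adipfl/fl and 1068 CPM in Adipfl/flpVilli-CreT, a fold of 0.509 (0.503 to 0.515). In such sums, fewer enteroendocrine cells and less hormone RNA in each cannot be told apart. Goblet, enterocyte and T cell markers also moved between the libraries as given above, and their part was not tested.

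Within hormone-rich barcodes the members that were spread over many barcodes were closer between the genotypes. Chga was at 6016 and 5021 CPM (0.835), Chgb at 17866 and 15199 CPM (0.851) and Tph1 at 2050 and 1819 CPM (0.887). Over enteroendocrine-like barcodes, taken without the members, the direction turned for these 3, at 1.08 (1.03 to 1.14) for Chga, 1.08 (1.05 to 1.12) for Chgb and 1.13 (1.04 to 1.24) for Tph1. No direction is read for them.

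The peptide hormones kept their direction within hormone-rich barcodes, where 14.2% of 6927 genes were lower and 18.1% higher by at least 1.5-fold. Gip was at 20562 and 15291 CPM (0.744), Sct at 31432 and 19076 CPM (0.607) and Nts at 12494 and 7482 CPM (0.599). Over enteroendocrine-like barcodes the folds were 0.869 for Gip, 0.734 for Sct and 0.584 for Nts. That of Gip was 0.985 there without the top barcode of each library, so no direction is read for Gip. Ghrl was at 14522 and 205 CPM (0.0141) and Sst at 11391 and 621 CPM (0.0545). Over the same alternatives the fold of Ghrl here reached 0.0725 and that of Sst lay between 0 and 0.169. Cck was at 3040 and 4827 CPM (1.59) and Gcg at 16.5 and 3444 CPM (209). Among hormone-rich barcodes the ratio of shares high for a member was 0.979 (0.453 to 2.13) for Gip and 0.968 (0.658 to 1.43) for Sct. It was 0.787 (0.332 to 1.83) for Nts, 0.275 (0.0487 to 1.07) for Ghrl and 0.184 (0.00388 to 1.64) for Sst. Each of these intervals held 1. The summed level was 119388 and 72984 CPM, a fold of 0.611 (0.604 to 0.619), and 0.733 over enteroendocrine-like barcodes. Each fold sums barcodes unequally, since barcodes with many UMIs weigh more. With every hormone-rich barcode given the same weight the fold was 0.814.

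The endocrine lists gave other counts in hormone-rich than in enteroendocrine-like barcodes. In Adipfl/flpVilli-CreT the 5 hormone-rich barcodes outside the enteroendocrine-like clusters held 25.2% of the UMIs of hormone-rich barcodes, against 5.98% for the 2 in Adipfl/fl. Within hormone-rich barcodes 4 of 17 transcription factors with at least 20 UMIs were lower by at least 1.5-fold in Adipfl/flpVilli-CreT and 1 was higher, and for granule genes it was 4 and 0 of 18, beside the 14.2% and 18.1% of all genes. Within enteroendocrine-like barcodes it was 1 and 3 of 17 transcription factors and 1 and 1 of 18 granule genes, beside 10.9% lower and 15.9% higher among 6330 genes. BMP response genes went from 4 lower of 6 to 0 of 6, receptors from 4 of 4 to 2 of 4, other hormones and amine genes from 2 lower and 3 higher of 10 to 1 and 3, and sensors from 2 and 1 of 11 to 2 and 2. No direction is read for any of the lists.

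Single genes were read in enteroendocrine-like barcodes, without a test. Hhex, a factor of somatostatin-making D cells, was at 62.7 and 6.47 CPM within enteroendocrine-like barcodes, a fold of 0.103 (0.0200 to 0.339). This came from 25 UMIs in 3 barcodes and 3 UMIs in 1 barcode and, like the Sst difference above, rests on few barcodes. Iapp, islet amyloid polypeptide, was at 300.7 and 45.3 CPM, a fold of 0.151 (0.0900 to 0.241), and was detected in only 5 and 6 hormone-rich barcodes. Glp1r, the receptor for glucagon-like peptide, was at 65.2 and 25.9 CPM from 26 and 12 UMIs, a fold of 0.397 (0.183 to 0.816). Pyy was at 5845 and 8092 CPM, from 14 and 16 barcodes, a fold of 1.38 (1.31 to 1.46). Within hormone-rich barcodes the fold of Pyy was 1.10 (1.05 to 1.16), so its size depends on the set of barcodes. The intervals of Sstr1, Sstr5 and Npy1r held 1.

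In kept barcodes that were not hormone-rich, several members were higher in Adipfl/flpVilli-CreT at a low level. Gip was at 4.55 and 10.3 CPM and Tph1 at 0.633 and 1.31 CPM. Gcg had 3 and 52 UMIs (0.119 and 1.08 CPM), a fold of 9.07 (2.94 to 45.4). Cck had 22 and 99 UMIs (0.871 and 2.05 CPM), a fold of 2.35 (1.47 to 3.93). Nts was at 5.22 and 10.7 CPM, a fold of 2.04, but without the cycling-like cluster, where it had 396 CPM in Adipfl/flpVilli-CreT, the fold was 1.28 (1.04 to 1.58). Chga was at 19.1 and 28.7 CPM and Chgb at 3.40 and 7.11 CPM, the latter with 165 UMIs in 1 barcode and a fold of 1.39 without the top barcode of each library. Sst was at 12.7 and 0.476 CPM, with 251 of the 321 UMIs of Adipfl/fl in 1 barcode. Sct was at 78.5 and 81.8 CPM, a fold of 1.04 (0.986 to 1.10), a difference not detectable at this depth. T cell-like barcodes, which should lack these genes, were also higher in Adipfl/flpVilli-CreT, with Gip at 3.81 and 18.5 CPM, Nts at 2.17 and 8.78 CPM, Chga at 9.24 and 29.6 CPM and Chgb at 13.6 and 78.1 CPM. For Chgb, 1 T cell-like barcode of each library held 19 of 25 and 165 of 169 UMIs, so its level there is not read as background. For Chga the T cell-like level rested on 17 and 64 UMIs. After thinning, 0.567% and 0.730% of T cell-like barcodes had a Chga UMI, with overlapping intervals, so no rise of its background is read. Without T cell-like barcodes the fold of Chga outside hormone-rich barcodes was 1.44 (1.30 to 1.61). The low levels of Gip are read as background. No difference between the genotypes is read for Gcg, Cck, Tph1, Nts, Chga or Chgb outside hormone-rich barcodes.

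**Figure D5:**
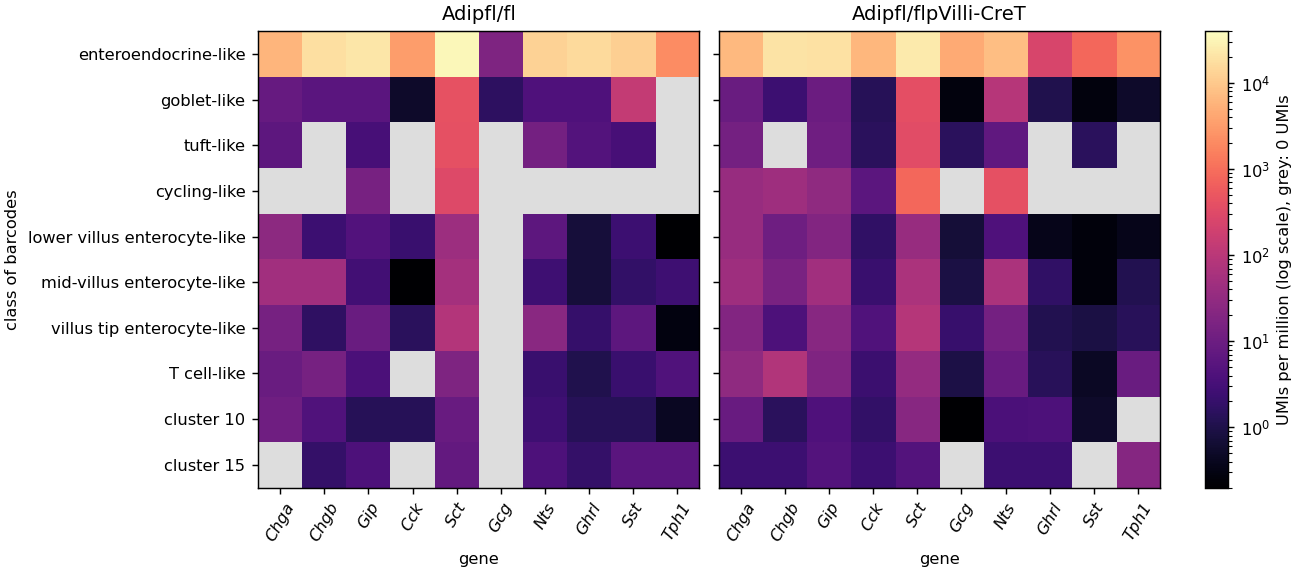
CPM of each of the 10 genes (columns) in 10 classes of kept barcodes (rows) for Adipfl/fl and Adipfl/flpVilli-CreT, with classes named by markers that do not include the 10 genes. Enteroendocrine-like barcodes were highest for every gene that was detected, and Sct was also at 424 and 389.6 CPM in goblet-like barcodes.

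The region of the intestine matters for hormones, and 10 genes that differ along the small intestine were read in epithelial barcodes. The study's text describes small intestinal epithelium, while its supplementary legends call these cell clusters ileal. Which region was sampled was not tested. The ileal bile acid gene Fabp6 was at 3.37 and 3.44 CPM and Slc10a2 at 1.62 and 1.81 CPM. Gata4, a factor of the upper small intestine, was at 62.4 and 65.1 CPM and Onecut2 at 47.4 and 42.5 CPM. The ileal hormone Fgf15, at 9.0 and 4.46 CPM, the iron exporter Slc40a1, at 3.91 and 2.47 CPM, and Cybrd1, at 0.540 and 1.02 CPM, were further apart. The others of the 10 were within 1.5-fold. The part of region in the Gcg, Nts and Ghrl differences was not tested.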

How the data were processed

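Both libraries were made from dissociated small intestinal epithelium with the 10x Genomics 3′ kit. The deposited tables hold raw UMI counts for every gene in every barcode, made by the authors with Cell Ranger (7.1.0 by the file header, an older release by the methods) on mm10 after conversion with bcl2fastq 5.0.1, and neither normalized nor filtered for quality. The tables had 0 columns that could not be assigned to a library. Total counts were 42150623 and 63370798 UMIs, which sets the precision of every value.

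Barcodes with over 500 genes and under 25% of UMIs from mt- genes were kept. Levels are UMIs summed over barcodes per 1000000 UMIs (CPM), with exact Poisson intervals, and folds have exact conditional intervals. Shares have Clopper-Pearson intervals. All cover counting error only at 95% confidence, and no p-value was computed because there was 1 library per genotype. A gene entered the background at 20 UMIs over both libraries. Clusters came from Seurat 5.3.0 under R 4.3.3 (LogNormalize, 2000 variable genes without the 10 members, 20 components, Louvain resolution 0.8), where the study used an older Seurat, and a class name needed 3 or more markers at 2-fold or more. Class names carry "-like" because they were rebuilt here and may differ from those of the study. No doublet was taken out. Scrublet, run in scanpy 1.11.5, marked 3 barcodes of Adipfl/fl and 2 of Adipfl/flpVilli-CreT, which is too few for its calls to be used, so an alternative left out the 8% with the highest scores.

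Named genes were the members, the 3 most alike each member, the 5 genes with the largest fold for each leading hormone with at least 10 barcodes, the 20 genes furthest above the other barcodes, and defining genes and the 4 highest of each hand-written list. Only some of these are named, and other genes named were picked after their values were seen. The members and lists were chosen with earlier results of these data known. Fold and interval code was tested on simulated counts of 16380 genes with 200 changed, in which 95 of 100 genes raised 2-fold and 95 of 100 lowered to 0.5-fold were recovered and 95.6% of intervals held the true fold. These counts were drawn with independent UMIs, as the intervals assume, so this checks the code only. It does not cover members whose UMIs lie in few barcodes. The scripts ran in Python 3.11.15 (pandas 2.3.3, scipy 1.17.1, numpy 2.4.6, scikit-learn 1.9.0, matplotlib 3.10.9). Alternatives changed the filters on barcodes, the mitochondrial gene set, the denominator, the weight of barcodes, the limits for hormone-rich and high barcodes, the depth, the clustering and doublet removal. Protein sequences were not used here. The result of 1 marker list is not reported here.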

Additional observations from a re-analysis of the deposited data

Results flagged for a closer look

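Barcodes removed by the filters also held members. Among the 6722 removed barcodes of Adipfl/fl, 20 met the limit for hormone-rich barcodes, and among the 6283 of Adipfl/flpVilli-CreT 4 did. In Adipfl/fl Nts led in 14 of them, Sct in 4 and Gip in 1, and in Adipfl/flpVilli-CreT Nts led in 3. They were shallow, with a median of 1480.5 and 1241 UMIs, and 18 and 4 of them were at or over the mitochondrial limit. Over all deposited barcodes the hormone-rich shares were 76 of 9791 and 65 of 11838, a ratio of 0.707 (0.500 to 0.998).

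For 5 members the fold between the libraries lay on opposite sides of 1 within hormone-rich barcodes and in the other kept barcodes. The share of all genes with such opposite folds was not computed, so nothing is read from this number of members. The folds were 0.835 and 1.5 for Chga, 0.851 and 2.09 for Chgb, 0.744 and 2.27 for Gip, 0.599 and 2.04 for Nts and 0.887 and 2.06 for Tph1. For Chga, Chgb and Tph1 the first fold turned to 1.08, 1.08 and 1.13 over enteroendocrine-like barcodes, so they no longer lay on opposite sides, and for Nts the second was 1.28 without the cycling-like cluster. The differences between the folds were not tested, since each library is 1 sample. Levels of these 5 members outside hormone-rich barcodes were low, from 0.633 CPM for Tph1 in Adipfl/fl to 28.7 CPM for Chga in Adipfl/flpVilli-CreT.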

How the results depend on the processing

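With 1 library per genotype no value can be set against the spread between animals, and depth limits most the members held by few barcodes. No paired analysis was possible because there was 1 library for each genotype and no test. Of 82 alternative values for the main results, 60 moved by less than counting error (for the number of members, by no more than 1.5 times) and 22 by more. A change of direction was possible only for the ratios of shares and the summed folds, and 0 of these changed. The shares with 2 or more hormones and the number of members had no direction to change. The ratio of hormone-rich shares lay between 0.552 and 0.738. The number of members lower by at least 1.5-fold lay between 3 and 7. It was 3 without a filter on barcodes, where no background was computed, and 3 at a fold of 2 (background 5.83%). Counting genes from 1 UMI over kept barcodes changed only the background, to 26.3% of 27975 genes, and left the number of members at 5 by design. The share with 2 or more hormones in Adipfl/fl became 85.5% without a filter and 55.4% with 10 UMIs and 0.5% required. In Adipfl/flpVilli-CreT it became 71.9% after thinning and 57.4% with 10 UMIs and 0.5%. The summed fold over kept barcodes, 0.509, became 0.622 at a mitochondrial limit of 50%, 0.646 without a filter, 0.627 with 13 mitochondrial genes, 0.534 as the mean of shares per barcode, 0.524 without the top barcode, 0.473 in epithelial barcodes and 0.601 without the highest Scrublet scores. Within hormone-rich barcodes, 0.611 became 0.585 and 0.631 at mitochondrial limits of 10% and 50%, 0.639 without a filter, 0.631 with 13 mitochondrial genes, 0.814 as the mean of shares, 0.657 and 0.849 at limits of 0.5% and 2%, 0.652 without the highest Scrublet scores and 0.733 over enteroendocrine-like barcodes, an alternative added after the data were seen. For single members 99 of 210 values moved by more than counting error. Of these, Chga (1.10), Chgb (1.04) and Tph1 (1.22) within hormone-rich barcodes crossed 1 as means of shares, Tph1 also at a mitochondrial limit of 10% (1.05), and Cck over kept barcodes as the mean of shares (0.940). The cause of these changes was not tested.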
